A study of Homo sapiens with 6 samples.

Results

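The cadherins, the protocadherins and the catenins, protein families of cell adhesion and adherens junctions, were examined in HK-2 cells with and without a knockdown of PARP1. HK-2 is an established human cell line derived from proximal tubule epithelium of the kidney. PARP1 encodes the nuclear enzyme that attaches poly(ADP-ribose) to proteins, mostly in response to DNA breaks. The genes were chosen by symbol among the protein-coding rows of the count table. They comprise the cadherins with a numbered or CDHR symbol other than CDH6, all protocadherins, the Fat, Dachsous and Celsr cadherins, and the genes whose symbol begins with CTNNA, CTNNB or CTNND. This gave 90 of the 30403 genes in the table, of 16672 protein-coding genes. Of the 90, 38 had enough reads to be tested, among 16040 genes tested in all.

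RNA was sequenced from 3 libraries of cells transfected with a plasmid for an shRNA against PARP1 (shPARP1) and from 3 libraries of cells transfected with a control shRNA plasmid (shCtrl). Both groups were harvested 48 h after a lipid-mediated plasmid transfection, and the labels describe no selection of the transfected cells. The labels do not say whether the 3 libraries of a group came from separate cultures, so p-values measure the spread between libraries, which may be technical. The comparison asks which transcripts differed after the knockdown.

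Cadherins are membrane proteins that bind, through repeated calcium-binding domains outside the cell, to cadherins on the neighbouring cell. Classical cadherins carry a cytoplasmic tail to which p120-catenin (CTNND1) and beta-catenin (CTNNB1) bind, and alpha-catenin (CTNNA1) links beta-catenin to the actin cytoskeleton. Beta-catenin that is not bound to cadherin is either destroyed or enters the nucleus, where it activates transcription with TCF factors. The giant Fat and Dachsous cadherins and the Celsr cadherins orient cells within the plane of an epithelium. The clustered protocadherins form 3 tandem gene arrays, in which each alpha and gamma transcript joins its own variable exon to exons shared by the whole array. In kidney tubules the abundant classical cadherins are known to be CDH1, CDH2 and CDH6, and CDH16 is a kidney-specific cadherin.

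Library totals were 29387853 to 32809303 counts in shPARP1 and 24429683 to 26269194 counts in shCtrl, so that 3 counts corresponded to 0.0914 to 0.123 CPM (counts scaled to a common library total). PARP1 itself had 26.9, 26.2 and 28.8 CPM in the shPARP1 libraries, against 262, 263 and 259 CPM in the shCtrl libraries. Its log2 fold change was -3.26 ± 0.04 (SE). Of the proximal tubule markers, PAX8, GGT1 and DPP4 were expressed at 16.3 CPM or more in both groups, while HNF4A, LRP2, CUBN, ANPEP, SLC34A1, SLC22A6 and VIL1 were too low to test in these cells. In RNA from bulk cultures, fewer cells that express a gene and less RNA per cell cannot be told apart.

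Most of the tested genes of these families were lower after the knockdown. A gene was called lower or higher when its Benjamini-Hochberg adjusted p, from edgeR's quasi-likelihood test over all tested genes, was under 0.05. Of the 38 tested genes, 24 were called lower in shPARP1, where 28.5% of all tested genes were called lower. Only 4 of the 38 were called higher, where 27.3% of all tested genes were called higher, and 10 were not called. The 3 shPARP1 libraries all lay below the 3 shCtrl libraries in 25 of the 38 genes, against 30.4% of all tested genes. They all lay above them in 4 of the 38, against 29.7% of all tested genes. The median log2 fold change was -0.62 over the 38 genes and -0.01 over all tested genes. Among the 21 genes that averaged 5 CPM or more, 17 fell, 3 rose and 1, PCDHGA1, was not called. The shares called among all genes of that level were not computed, so these counts have no matching background. The fall was at least 2-fold in 6 of the 38 genes, against 4.07% of all tested genes.

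**Figure D1:**
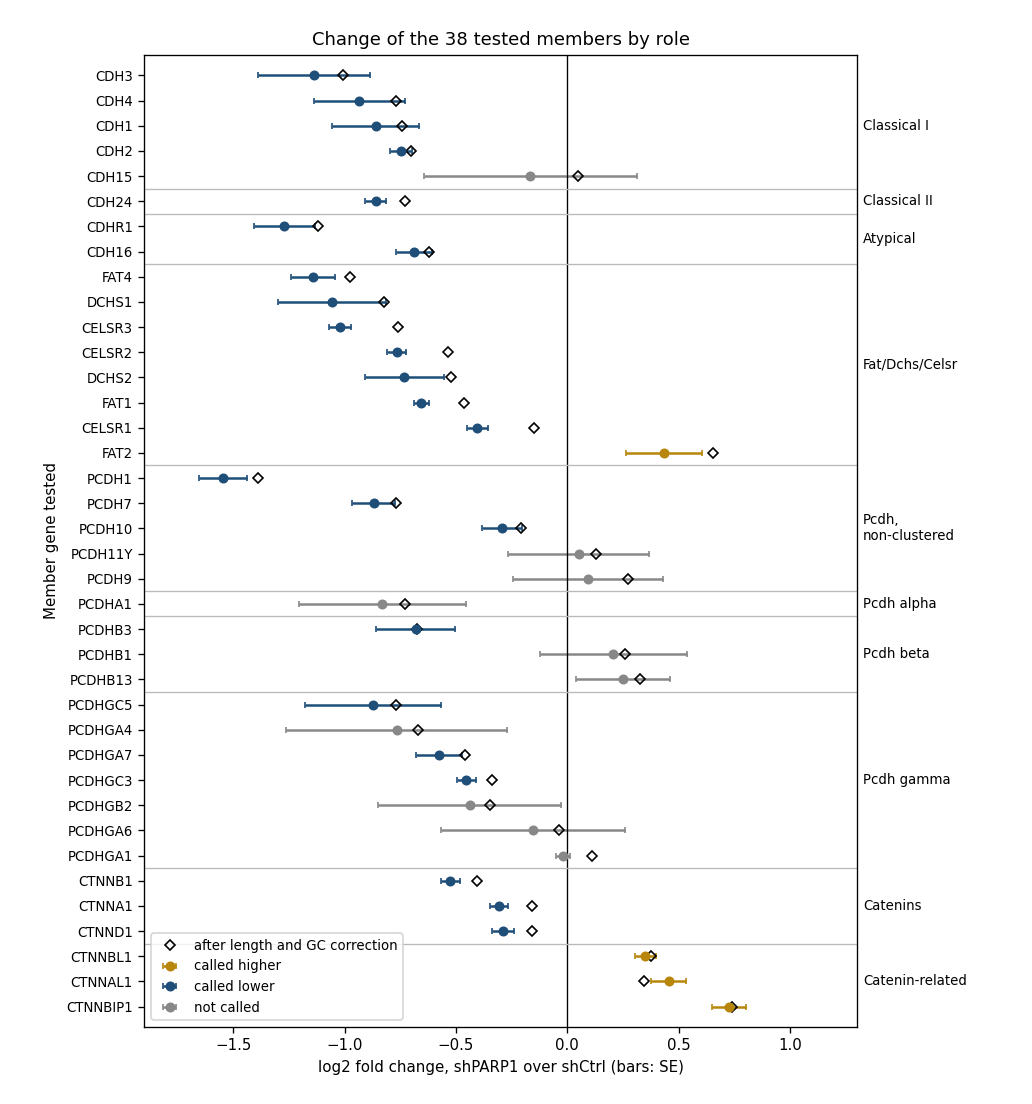
The log2 fold change (shPARP1 over shCtrl, x axis) of each of the 38 tested genes is shown by role group, with bars for the SE and colours for the call; open diamonds give the value after a correction for exon length and GC content. Points left of the line at 0 make up most of every group except the catenin-related proteins, where all 3 lie to the right, and the beta protocadherins, where 1 of 3 lies to the left.

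The RNA of classical cadherins, which carry the catenin-binding tail, fell as a group. CDH2 (N-cadherin, chromosome 18) had 50.2, 51.8 and 54.0 CPM in shPARP1, against 87.8, 82.2 and 91.8 CPM in shCtrl. Its highest shPARP1 library lay well below its lowest shCtrl library. The log2 fold change was -0.75 ± 0.05 (SE), with an edgeR adjusted p of 4.3e-20. CDH24, a type II cadherin (chromosome 14), had 71.5, 63.5 and 59.8 CPM in shPARP1, against 120.4, 113 and 121 CPM in shCtrl. The groups did not overlap, and the level in shPARP1 was 55.0% of that in shCtrl (log2 fold change -0.86 ± 0.05, edgeR adjusted p = 1.9e-20).

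The other classical cadherins were present at low levels. CDH3 (P-cadherin) had 0.880, 1.36 and 1.04 CPM in shPARP1, against 2.17, 3.35 and 1.69 CPM in shCtrl. All 3 shPARP1 values lay below the lowest shCtrl value, and the log2 fold change was -1.14 ± 0.25 (edgeR adjusted p = 0.00011). CDH1 (E-cadherin), the main cadherin of most epithelia, averaged 1.83 ± 0.28 CPM in shPARP1 and 3.35 ± 0.44 CPM in shCtrl (SD, n = 3 each). Its log2 fold change was -0.86 ± 0.20 (edgeR adjusted p = 0.00016), close in size to those of CDH2 and CDH24. CDH4 (R-cadherin) also fell, by 0.93 on the log2 scale. In limma on unfiltered log2(FPKM + 1), CDH3 (adjusted p = 0.131) and CDH4 (0.0677) lost their calls. CDH15 (M-cadherin), a muscle cadherin, stayed under 0.47 CPM in every library and was not called. Of the 5 type I cadherins, 4 were therefore lower and none higher, where 28.5% of all tested genes were called lower. CDH24 was the only type II member to pass the filter, and CDH5, CDH7, CDH18 and CDH22 had at most 6 counts in any library.

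Summed over the type I and type II members, deposited FPKM (a level scaled by transcript length and by depth) came to 27.7 ± 1.09 in shPARP1 and 47.4 ± 1.44 in shCtrl (SD, n = 3 each). The shares of its genes overlapped between the groups. CDH24 accounted for 62.1, 58.7 and 56.3% of it in the shPARP1 libraries, against 61.2, 61.0 and 60.5% in the shCtrl libraries. CDH2 accounted for 34.8, 38.3 and 40.6% in shPARP1, against 35.6, 35.4 and 36.6% in shCtrl. For both genes the shPARP1 libraries reached beyond the shCtrl range on either side. The exact two-sided permutation test gave p = 0.4 for the share of each, where 0.1 is the smallest p that 3 against 3 libraries allow. The difference in share, shPARP1 minus shCtrl, was -1.83 percentage points for CDH24 and 1.98 for CDH2. CDH1 held 1.18 ± 0.16% in shPARP1 and 1.23 ± 0.14% in shCtrl. CDH6, a type II kidney cadherin outside the set, was itself lower (21.6 ± 0.58 FPKM in shPARP1, 43.5 ± 1.36 FPKM in shCtrl). With it in the sum, CDH2 held 20.2, 21.2 and 22.3% in shPARP1, against 18.9, 18.0 and 19.2% in shCtrl. Those shares did not overlap (exact permutation p = 0.1). CDH6 itself held 43.9 ± 1.61% in shPARP1 and 47.8 ± 1.18% in shCtrl, also without overlap (exact permutation p = 0.1). The sign of the difference for CDH24 turned, to 1.43 percentage points, but its shares overlapped (exact permutation p = 0.5).

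**Figure D2:**
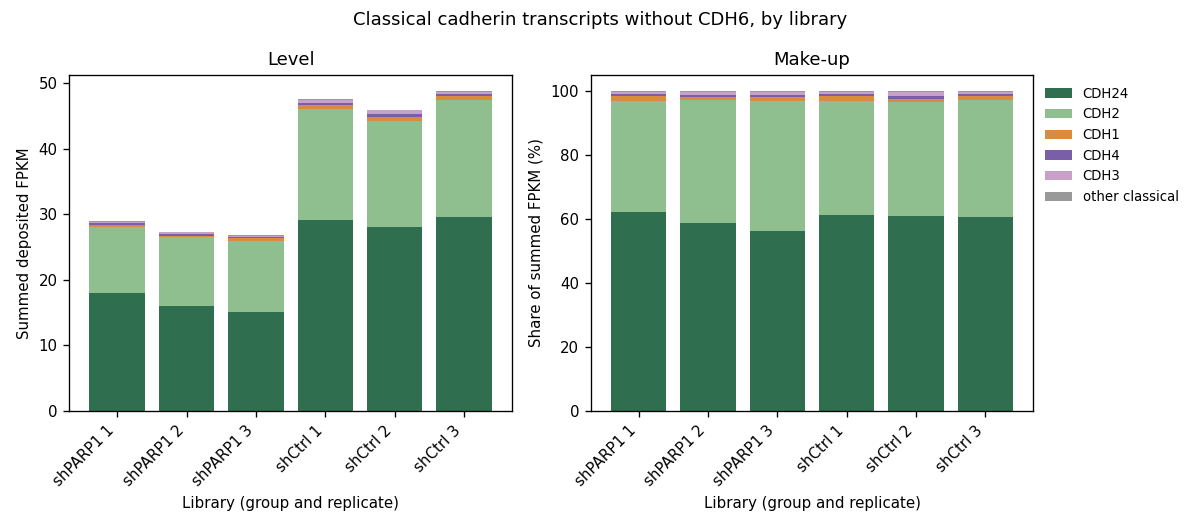
Stacked bars give the summed deposited FPKM of the classical cadherins without CDH6 (left, y axis in FPKM) and the share of that sum held by each gene (right, y axis in percent) for each library. The 3 shPARP1 sums, 26.8 to 28.9 FPKM, lie below the 3 shCtrl sums, 45.9 to 48.8 FPKM, while CDH24 and CDH2 hold most of the sum in every library.

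Among the atypical cadherins, which lack the catenin-binding tail, both genes that could be tested fell, where 28.5% of all tested genes were called lower. CDH16, the kidney-specific cadherin (chromosome 16), had 16.0, 15.5 and 14.7 CPM in shPARP1, against 25.8, 26.2 and 22.6 CPM in shCtrl. CDHR1, a cadherin best known from photoreceptors (chromosome 10), had 3.46, 3.27 and 3.26 CPM in shPARP1, against 7.52, 7.74 and 8.88 CPM in shCtrl. Neither gene's groups overlapped. The log2 fold change was -0.69 ± 0.08 for CDH16 and -1.27 ± 0.14 for CDHR1 (SE), with edgeR adjusted p-values of 8.6e-11 and 5.7e-12. The remaining 8 atypical cadherins, CDH13, CDH17, CDH23, CDH26, CDHR2, CDHR3, CDHR4 and CDHR5, had at most 15 counts in any library.

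The Fat, Dachsous and Celsr cadherins were lower in 7 of 8 tested genes and higher in FAT2. Among all tested genes, 28.5% were called lower and 27.3% higher. FAT1 (chromosome 4), which restrains growth through the Hippo pathway, is among the most abundant genes of the set. It had 316, 330.0 and 326 CPM in shPARP1, against 516, 506 and 509 CPM in shCtrl. The groups lay far apart relative to their spread (log2 fold change -0.66 ± 0.03, edgeR adjusted p = 3.7e-25). FAT4, which pairs with Dachsous cadherins across the junction, had 6.25, 7.75 and 7.29 CPM in shPARP1, against 15.7, 16.0 and 15.3 CPM in shCtrl. Its partner DCHS1 had 1.43, 1.17 and 0.907 CPM in shPARP1, against 2.09, 1.93 and 3.31 CPM in shCtrl. Both genes fell by over 1 on the log2 scale, FAT4 by 1.14 and DCHS1 by 1.06, with no overlap between groups. After the correction for exon length and GC content, the values were -0.97 for FAT4 and -0.82 for DCHS1. DCHS2 fell by 0.73. In limma on log2(FPKM + 1) without a filter on low genes, the calls of DCHS1 (adjusted p = 0.199) and DCHS2 (0.193) were lost. FAT2 was the exception, with 3.67, 3.79 and 3.59 CPM in shPARP1, against 2.88, 2.39 and 2.92 CPM in shCtrl. Its groups did not overlap, but the call was weak (log2 fold change 0.43 ± 0.17, edgeR adjusted p = 0.027) and it was lost when shCtrl library 2 was left out (adjusted p = 0.0995), when any 1 shPARP1 library was left out (0.0508 to 0.0753) and with DESeq2 (0.0556).

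All 3 Celsr genes, which encode adhesion receptors of the planar polarity pathway, fell by different amounts. CELSR3 had 44.1, 47.0 and 40.4 CPM in shPARP1, against 94.0, 84.8 and 88.1 CPM in shCtrl. CELSR2 had 72.5, 71.5 and 66.9 CPM in shPARP1, against 122, 118 and 119.6 CPM in shCtrl. CELSR1 had 58.4, 58.8 and 56.6 CPM in shPARP1, against 82.0, 72.9 and 75.2 CPM in shCtrl. No gene's groups overlapped. The log2 fold changes were -1.02 ± 0.05 for CELSR3, -0.77 ± 0.04 for CELSR2 and -0.40 ± 0.05 for CELSR1 (SE, edgeR adjusted p of 1.9e-10 or less). Of 14 other planar polarity and Fat-Dachsous partners, 6 were lower, 3 higher and 5 not called, with a median log2 fold change of -0.15. Over all tested genes, 28.5% were called lower and 27.3% higher. The co-receptor PTK7 fell by 0.85 and the Wnt receptor FZD6 fell by 0.78 on the log2 scale. The cytoplasmic adaptors DVL3 and DVL1 rose, with log2 fold changes of 0.26 and 0.24.

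**Figure D3:**
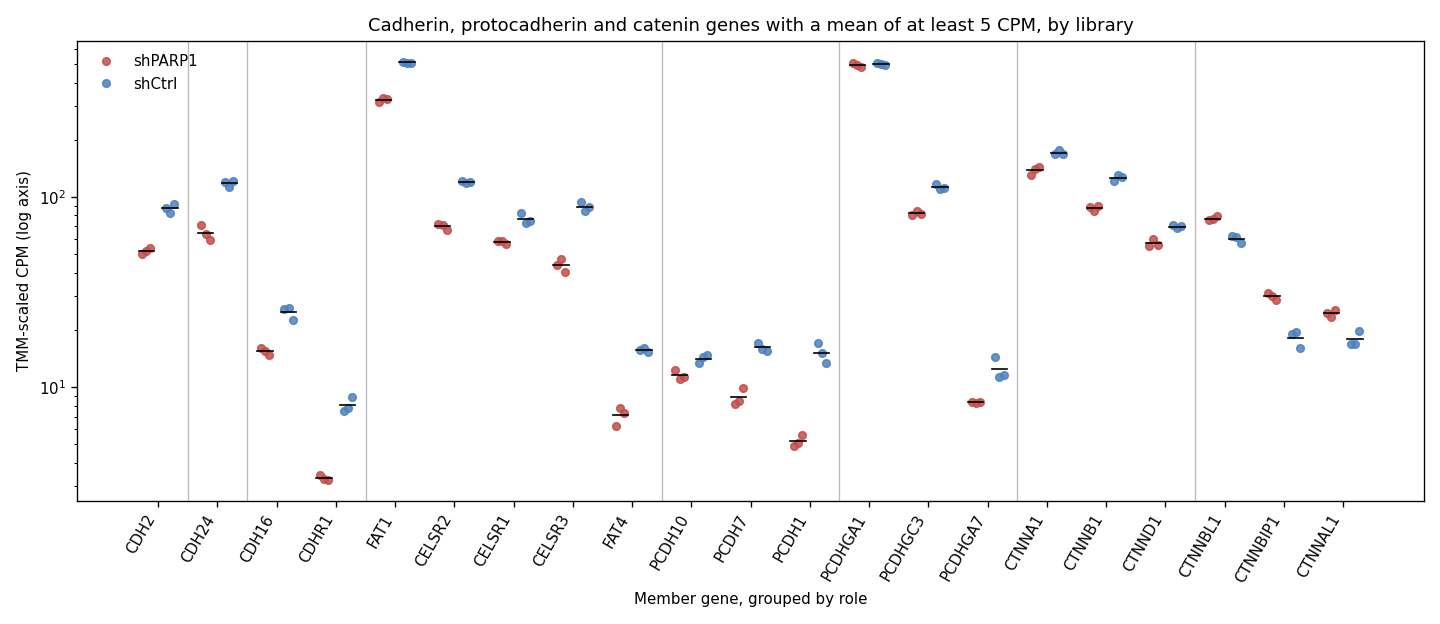
Each point is the CPM of 1 library (y axis, log scale) for the 21 genes that averaged 5 CPM or more (x axis, grouped by role), with shPARP1 left of shCtrl and a line at each mean. The shPARP1 points lie below the shCtrl points for 17 genes and above them for CTNNBL1, CTNNBIP1 and CTNNAL1; those of PCDHGA1 overlap.

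Of the non-clustered protocadherins, 3 of 5 tested genes fell and none rose, where 28.5% of all tested genes were called lower. PCDH1 (chromosome 5), a protocadherin expressed in many epithelia, showed the steepest fall of all 38 genes. It had 4.89, 5.09 and 5.57 CPM in shPARP1, against 17.1, 15.0 and 13.3 CPM in shCtrl. The shPARP1 level was 34.2% of the shCtrl level, with no overlap (log2 fold change -1.55 ± 0.11, edgeR adjusted p = 9.6e-19). PCDH7 had 8.17, 8.46 and 9.91 CPM in shPARP1, against 17.0, 15.9 and 15.6 CPM in shCtrl, and fell by 0.87 on the log2 scale. PCDH10 had 12.2, 11.0 and 11.3 CPM in shPARP1, against 13.3, 14.3 and 14.7 CPM in shCtrl. Its groups lay close together, without overlap (log2 fold change -0.29 ± 0.09, edgeR adjusted p = 0.0049), and with limma on log2(FPKM + 1) the call was lost (adjusted p = 0.107). PCDH9 and PCDH11Y were not called, at means of at most 0.931 CPM, and reads of PCDH11Y may be uncertain because its X-linked copy is nearly identical.

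The E-box CAGGTG is a site bound by the SNAI and ZEB repressors of cadherin genes. It was searched on either strand in RefSeq promoter windows (GRCh38.p14) that run from 250 bases before to 50 after a gene start, which were matched for 27 of the 38 tested genes. CDH1, CDH3, CDH15, CDH16, CDH24, CELSR1, CTNND1, DCHS1, FAT4, PCDH10 and PCDHGC5 had no entry. For 21 of the 27 a window began from a start within 1000 bases of the gene's outermost start in GENCODE. For the other 6, among them PCDH1 at 9.6 kb and CDH4 at 247 kb, the windows lie at starts inside the gene. CAGGTG stood in the windows of 3 of the 27, PCDH1, CDH4 and PCDHB1, and in those of 24.1% of the 27305 genes with a window. PCDH1 and CDH4 were lower and PCDHB1 was not called. A match of letters describes the window and is not evidence of binding.

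The clustered protocadherins on chromosome 5 are given with a caution. Each gamma gene shares 27.6 to 64.4% of its exon bases with other genes of its cluster, and how reads from shared exons were assigned is not given in the sources used here. Of 44 clustered genes in the table, 11 were tested, 4 fell and none rose. Of all tested genes, 28.5% were called lower and 27.3% higher. PCDHGA1, the gene that starts farthest upstream in the gamma cluster (chr5:141330571-141512981, plus strand), had 505, 496 and 485 CPM in shPARP1, against 509, 499 and 497 CPM in shCtrl. These overlapped (log2 fold change -0.02 ± 0.03, edgeR adjusted p = 0.65). PCDHGC3, a C-type gamma gene at the far end of the cluster, had 80.6, 84.7 and 81.4 CPM in shPARP1, against 117, 109.6 and 111 CPM in shCtrl. It fell without overlap (log2 fold change -0.45 ± 0.04, edgeR adjusted p = 9.3e-14). PCDHGA7 had 8.32, 8.23 and 8.39 CPM in shPARP1, against 14.3, 11.3 and 11.6 CPM in shCtrl, and fell by 0.57 on the log2 scale.

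PCDHGC5, the last C-type gene, fell by 0.87 on the log2 scale at a mean of 0.744 CPM in shPARP1 and 1.37 CPM in shCtrl. Its call was lost without shPARP1 library 3 (edgeR adjusted p = 0.0789) or shCtrl library 3 (0.0716). PCDHGA4, PCDHGA6 and PCDHGB2 were not called. Summed over the gamma genes, the level was 590 ± 11.1 CPM in shPARP1 and 632 ± 11.0 CPM in shCtrl (SD, n = 3 each). PCDHGA1 took 84.0 ± 0.38% of these counts in shPARP1 and 79.5 ± 0.40% in shCtrl. Without PCDHGA1 the sum was 94.4 ± 2.14 CPM in shPARP1 and 130 ± 4.66 CPM in shCtrl. PCDHGA1 shares 34.9% of its exon bases with 21 other genes. Whether its counts include reads of other gamma transcripts was not tested. After the correction for exon length and GC content, PCDHGA1 was called higher (log2 fold change 0.11, edgeR adjusted p = 6.2e-05).

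**Figure D4:**
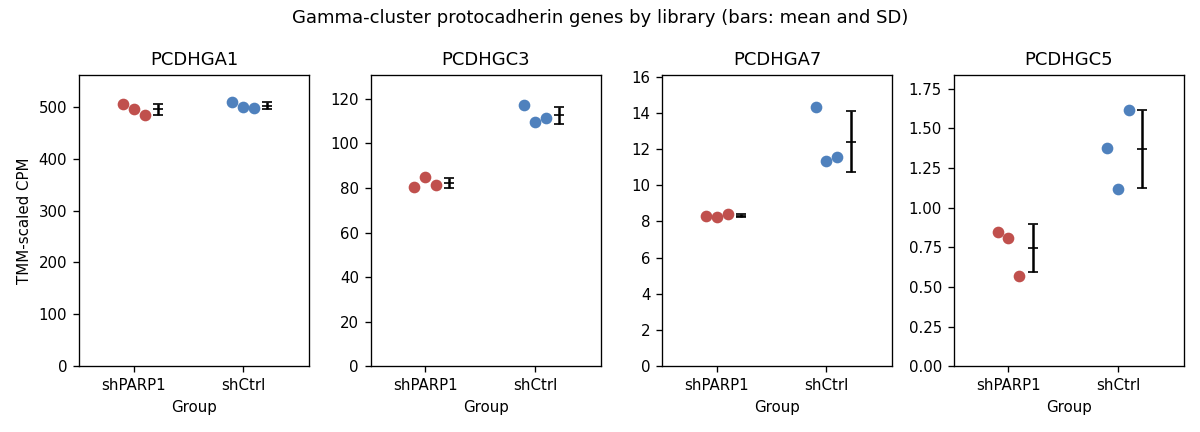
Each panel gives 1 gamma protocadherin gene, with the CPM of each library (y axis, linear and starting at 0) in shPARP1 on the left and shCtrl on the right, and the mean with its SD beside the points. The groups overlap for PCDHGA1 and lie apart for PCDHGC3, PCDHGA7 and PCDHGC5.

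In the beta cluster, whose genes have a single exon each as a rule, PCDHB3 fell by 0.68 on the log2 scale (edgeR adjusted p = 0.00094), a call lost in limma on unfiltered log2(FPKM + 1) (adjusted p = 0.0682). PCDHB1 and PCDHB13 were not called, with log2 fold changes of 0.21 ± 0.33 and 0.25 ± 0.21. PCDHA1, the only alpha gene tested, had 0.546, 0.519 and 0.369 CPM in shPARP1, against 0.919, 0.655 and 0.999 CPM in shCtrl. Its groups did not overlap, but it missed the threshold (log2 fold change -0.83 ± 0.38, edgeR adjusted p = 0.055).

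Promoters of clustered protocadherins are known for a conserved element with the core CGCT, which takes part in promoter choice by CTCF. The following 54-base windows are shown because they set genes that fell beside genes that were not called. They are from the RefSeq promoter table (GRCh38.p14, plus strand, 5′ to 3′), with CGCTGT in capitals, and their starts lie within 57 bases of those in GENCODE. PCDHGC3 lies at chr5:141475872-141475925, PCDHGA7 at chr5:141382641-141382694 and PCDHB3 at chr5:141100385-141100438, and these 3 fell. PCDHGA1 lies at chr5:141330395-141330448 and PCDHA1 at chr5:140786078-140786131, and neither was called.
PCDHGC3: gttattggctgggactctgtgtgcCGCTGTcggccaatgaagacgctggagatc
PCDHGA7: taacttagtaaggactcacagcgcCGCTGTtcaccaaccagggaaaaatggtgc
PCDHB3: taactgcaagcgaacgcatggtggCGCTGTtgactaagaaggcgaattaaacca
PCDHGA1: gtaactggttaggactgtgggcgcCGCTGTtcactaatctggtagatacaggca
PCDHA1: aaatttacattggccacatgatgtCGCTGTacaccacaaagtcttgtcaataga
On either strand, CGCTGT stood in the windows of 13.3% of the 27305 genes and in 21 of 41 matched clustered protocadherins. The letters of CGCTGT and CAGGTG cannot overlap each other. Among tested clustered genes 8 of 10 held CGCTGT. These were the called PCDHB3, PCDHGA7 and PCDHGC3 and the uncalled PCDHA1, PCDHGA1, PCDHGA4, PCDHGA6 and PCDHGB2.

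Of 11 factors known to shape protocadherin promoter choice, 5 were lower, 4 higher and 2 not called, with a median log2 fold change of -0.25. Of all tested genes, 28.5% were called lower and 27.3% higher. The cohesin genes were divided. Its subunits SMC1A and RAD21 fell by 0.63 and 0.26 on the log2 scale, while SMC3 and STAG2 rose with log2 fold changes of 0.35 and 0.28, and the cohesin regulators WAPAL and NIPBL rose by 0.33 and 0.20. The insulator protein CTCF fell by 0.31. The methyltransferase SETDB1 fell by 0.28.

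All 3 tested catenins fell, where 28.5% of all tested genes were called lower. Alpha-catenin, CTNNA1 (chromosome 5), had 130.0, 141 and 144 CPM in shPARP1, against 169, 177 and 168 CPM in shCtrl. Beta-catenin, CTNNB1 (chromosome 3), had 88.6, 84.1 and 89.7 CPM in shPARP1, against 121, 130.1 and 127 CPM in shCtrl. The p120-catenin gene CTNND1 (chromosome 11), whose protein keeps cadherins at the membrane, had 55.3, 60.3 and 56.0 CPM in shPARP1, against 70.9, 68.5 and 70.4 CPM in shCtrl. In each case every shPARP1 library lay below every shCtrl library. The log2 fold changes were -0.31 ± 0.04 for CTNNA1, -0.53 ± 0.04 for CTNNB1 and -0.29 ± 0.05 for CTNND1 (SE), with edgeR adjusted p-values of 1.7e-09, 2.7e-16 and 7.1e-07. The deposited FPKM of CTNNA1 was 1.61 ± 0.11 times that of CTNNB1 in shPARP1 and 1.38 ± 0.03 times in shCtrl (SD, n = 3 each). CTNNA2 and CTNNA3, the alpha-catenins of brain and of heart and testis, had at most 4 counts in any library.

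All 3 catenin-related genes rose, against the direction of the catenins, where 27.3% of all tested genes were called higher. CTNNBIP1 (ICAT) encodes a small protein that keeps beta-catenin from binding TCF factors. It had 31.3, 30.2 and 28.7 CPM in shPARP1, against 19.1, 19.4 and 16.0 CPM in shCtrl. All 3 shPARP1 libraries lay above the shCtrl libraries (log2 fold change 0.73 ± 0.08, edgeR adjusted p = 2.7e-12). CTNNAL1 encodes alpha-catulin, a relative of alpha-catenin. It had 24.6, 23.3 and 25.5 CPM in shPARP1, against 16.8, 17.0 and 19.7 CPM in shCtrl. CTNNBL1, despite its name a protein associated with the spliceosome, had 75.3, 76.3 and 79.2 CPM in shPARP1, against 62.1, 61.6 and 57.2 CPM in shCtrl. Neither gene's groups overlapped. The log2 fold change was 0.46 ± 0.08 for CTNNAL1 and 0.35 ± 0.05 for CTNNBL1 (SE), with edgeR adjusted p-values of 1.6e-06 and 4.9e-09. On the FPKM scale, CTNNBIP1 stood at 0.422, 0.429 and 0.381 times the level of CTNNB1 in shPARP1, against 0.188, 0.178 and 0.150 times in shCtrl.

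Per transcript length, the order of levels also differed between groups. The rank of PCDHGA1 carries the caution given above on reads from exons shared within the gamma cluster. In shCtrl the deposited FPKM was highest for PCDHGA1 (69.7 ± 0.71), then CTNNA1 (38.0 ± 1.59), FAT1 (29.9 ± 0.17), CDH24 (28.9 ± 0.77), CTNNB1 (27.5 ± 1.35) and CTNNBL1 (23.1 ± 1.09, SD, n = 3 for each). In that order the intervals of mean ± SD of the neighbours CDH24 and CTNNB1 overlapped. In shPARP1 the same genes averaged 70.9 ± 1.32 FPKM for PCDHGA1, 31.6 ± 1.80 for CTNNA1, 19.6 ± 0.50 for FAT1, 16.4 ± 1.46 for CDH24, 19.7 ± 0.65 for CTNNB1 and 30.4 ± 0.88 for CTNNBL1. CTNNBL1 thus stood within 1 SD of CTNNA1 there, and FAT1 within 1 SD of CTNNB1.

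Partners of the cadherin tail fell with the cadherins and catenins. Of 15 such genes, 12 were lower, none higher and 3 not called, with a median log2 fold change of -0.39. Over all tested genes, 28.5% were called lower and 27.3% higher. Vinculin (VCL), which binds alpha-catenin under tension, averaged 333 ± 5.97 CPM in shPARP1 and 671 ± 22.6 CPM in shCtrl. Its log2 fold change was -1.01 ± 0.03 (edgeR adjusted p = 1.6e-33). Plakoglobin (JUP), the closest relative of beta-catenin, fell by 0.47 on the log2 scale, the LIM protein AJUBA by 0.44 and the actin crosslinker ACTN4 by 0.39. PKP4, MLLT4 (afadin) and LIMD1 were not called.

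Genes for the cleavage and turnover of cadherins also fell in most cases. Of 12 tested genes, 8 were lower, none higher and 4 not called (median log2 fold change -0.34). The shares over all tested genes were 28.5% lower and 27.3% higher. The receptor phosphatases PTPRM and PTPRF, which associate with cadherins, fell by 1.08 and 0.70 on the log2 scale. The phosphatase PTPN1 fell by 0.66 and the gamma-secretase subunit NCSTN fell by 0.49. The destruction complex and the nuclear partners of beta-catenin were divided, with 4 of 16 tested genes lower, 5 higher and 7 not called (median -0.02). These counts lie near the shares over all tested genes, 28.5% lower and 27.3% higher. APC2, FBXW11 and BTRC, which act in the marking of beta-catenin for destruction, fell by 1.08, 0.57 and 0.53 on the log2 scale. GSK3B, the kinase of the same complex, rose (log2 fold change 0.41 ± 0.06).

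Repressors known to act on cadherin genes did not move one way. Of 8 tested, 3 were lower, 1 was higher and 4 were not called, with a median log2 fold change of 0.02. For all tested genes the shares were 28.5% lower and 27.3% higher. TCF3, which encodes the E12 and E47 repressors, averaged 109.5 ± 1.85 CPM in shPARP1 and 61.8 ± 2.04 CPM in shCtrl (log2 fold change 0.83 ± 0.04). SNAI1 fell by 0.41, SNAI2 by 0.70 and ZEB2 by 0.56 on the log2 scale. Of other genes of the cadherin superfamily, 7 of 8 tested fell and none rose, where 28.5% of all tested genes were called lower. Their median log2 fold change was -1.03. The desmosomal cadherin DSG2 fell by 1.98, and the calsyntenins CLSTN2, CLSTN3 and CLSTN1 fell by 2.14, 0.76 and 0.37.

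**Figure D5:**
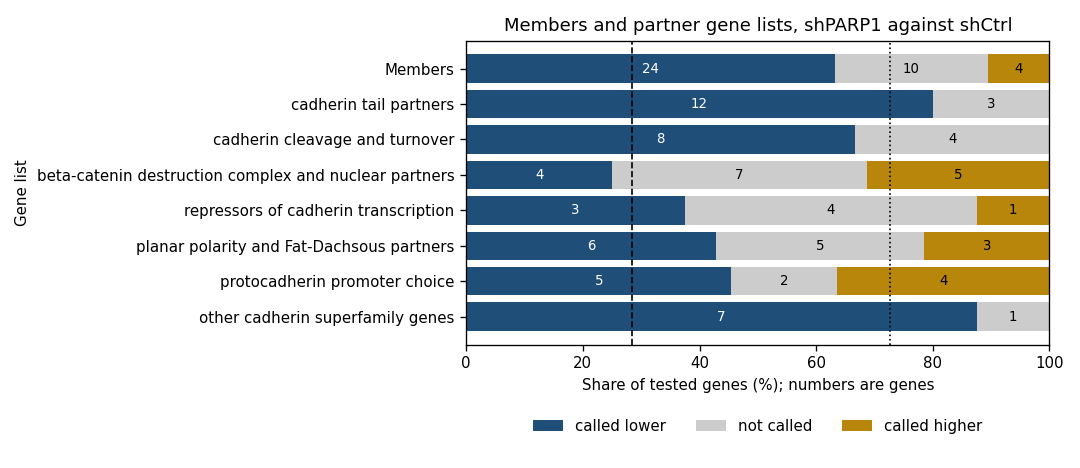
Bars give, for the 38 tested genes and for each list of partner genes (y axis), the share of tested genes called lower (left, dark blue), not called (grey) and called higher (right, ochre), with gene numbers inside (x axis in percent). The dashed line marks the 28.5% of all tested genes called lower and the dotted line, measured from the right edge, the 27.3% called higher; the destruction complex list lies below the dashed line with 4 of 16 genes lower.

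Markers of the kidney tubule and of other cell types did not all move one way. As background for the counts below, 28.5% of all tested genes were called lower and 27.3% higher. Of the 7 proximal tubule markers tested, 6 fell and none rose, and their summed level was 707 to 738 CPM in shPARP1 and 892 to 915 CPM in shCtrl. The general epithelial markers were divided (2 of 6 lower, 3 higher), at 1139 to 1163 CPM in shPARP1 and 978 to 1001 CPM in shCtrl. The fibroblast list, which bears on CDH2, had 4 of 8 genes tested, of which LUM, PDGFRB and ACTA2 fell and THY1 rose. Its sum was 11.8 to 12.6 CPM in shPARP1 and 21.3 to 24.2 CPM in shCtrl, and PDGFRA, DCN, COL3A1 and PRRX1 averaged at most 0.274 CPM in either group. Of the endothelial list 2 genes were tested and TIE1 fell, with a sum of 2.32 to 2.76 CPM in shPARP1 and 3.61 to 3.88 CPM in shCtrl. Of the leukocyte list 4 genes were tested, 2 fell and 1 rose. Its sum, almost all of it from the tested genes, was 30.4 to 34.1 CPM in shPARP1 and 40.3 to 44.0 CPM in shCtrl. The untested CD3E and LYZ averaged at most 0.171 CPM. Of the podocyte list SYNPO and PODXL fell, with a sum of 97.6 to 99.8 CPM in shPARP1 and 209 to 232 CPM in shCtrl, almost all of it SYNPO. No distal nephron marker could be tested. PDGFRA and CD3E had 0 counts in every shPARP1 library, and KDR, TEK, PTPRC, WT1, UMOD, AQP2 and CALB1 were not analysed here. The part of other cell types in the results was not tested.

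Gene length moved with the results, and depth differed between the groups. The tested genes had a median exon length of 6801.5 bases, against 4491 for all tested genes, and 19 of the 38 were in the upper quartile of length. Among all tested genes of that length, 39.1% were called lower and 19.7% higher, while 14 of the 19 were lower and 1, FAT2, was higher. With length and GC content fitted in each library, 24 of the 38 genes were still called lower and 5 higher. Over all tested genes, that fit called 25.9% lower and 30.6% higher. The median log2 fold change was then -0.46 over the 38 and 0.03 over all tested genes, and 30 of the 38 lay closer to 0. The values of CELSR1 (-0.15), CTNNA1 (-0.16) and CTNND1 (-0.16) moved by over 1.5 times and kept their calls, and FAT2 stood at 0.65. With all libraries thinned to the smallest total, 24 were called lower and 4 higher, the same counts as without thinning. Of the tested genes, 12 overlap an exon of a gene on the opposite strand, and where such a gene is in the table it had at most 14 counts in any library.

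The 52 genes that were not tested had at most 19 counts in any library, and 35 of them had 0 counts in at least 1 library. Together they summed to between 5.07 and 6.50 CPM per library. They include most of the clustered protocadherins, FAT3, PCDH12, PCDH15, PCDH17 and PCDH20, and differences in these genes were not detectable at this depth.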

How the data were processed

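Polyadenylated RNA of 6 HK-2 libraries was sequenced with a stranded paired-end protocol, per the labels' protocols. The authors deposited whole-number read counts per gene, not normalized, and FPKM values rounded to 2 decimals. The submitters' processing notes name GRCh38, bcl2fastq, TopHat2 and edgeR. Neither the counting tool nor its strand setting, its handling of shared exons or its annotation is given in the sources used here. Counts were tested with edgeR 4.0.16 in R 4.3.3, with TMM scaling, filterByExpr by group, a robust quasi-likelihood fit without covariates and Benjamini-Hochberg adjustment over all 16040 tested genes. CPM are scaled by TMM. The biological coefficient of variation was 4.83%. Depth is given above, and replicates differed by more than counting noise (chi-square per degree of freedom 2.54 to 4.54). FPKM was used for levels between genes, for cadherin shares (exact permutation test, scipy 1.17.1) and, in limma 3.58.1, for alternatives on the log2(FPKM + 1) or log2(FPKM + 0.1) scale, which understates changes of low genes. DESeq2 1.42.0 was another alternative. Exon lengths, GC content, gene coordinates and overlaps are from GENCODE release 29 (GRCh38), with length and GC for 99.2% of tested genes. The fit was tested on simulated data.

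Every tested gene of the families could be named. Values per library are given for genes that averaged 5 CPM or more, for called genes of at least 1 CPM that changed at least 2-fold, and for genes called against their role group, and PCDHA1 and the cohesin genes SMC3, STAG2, WAPAL and NIPBL were added after its values were seen. Counts and sums of the marker lists cover the whole lists, of which a few genes are not reported here by name. From each partner list up to 4 called genes with the smallest p are named. The genes, lists and tests were chosen with earlier results of these data known.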

Additional observations from a re-analysis of the deposited data

How the results depend on the processing

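Over 13 alternatives that kept all libraries (other scaling, filters, tests, units, length and GC correction, thinning, a minimum change and a replicate block), 17 to 25 of the family genes were called lower and 1 to 5 higher. Over all genes, 4345 to 9063 were called. Leaving out each library in turn gave 23 to 25 lower, 3 to 4 higher, 3 catenins, 3 to 5 clustered protocadherins and 8220 to 8646 genes in all. Calls that also needed a log2 fold change of at least 0.5 left 4345 genes in all, 1 catenin and 1 family gene higher, by construction. With log2(FPKM + 1) and no filter, 17 family genes were called lower, and 2 clustered protocadherins in either direction. On the same scale with the filter these were 23 and 4, and the fold changes of CDH3, CDH4, DCHS1, DCHS2, PCDHB3 and PCDHGC5, whose calls were lost without it, were the same. The replicate block gave 24 lower, 4 higher and 9060 genes in all. Same-numbered libraries correlated at -0.004 to 0.036 in their deviations from the group means, and not every library correlated best with its own number. With 3 libraries per group, such correlations cannot show whether the replicate numbers pair the libraries.

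Signs turned for genes near 0, and the cause was not tested. PCDHGA1 stood at 0.0249 in the tests on log2(FPKM + 1) with and without a filter, at 0.0252 with a pseudocount of 0.1, and at 0.11 after length and GC correction, with or without the block. CDH15 stood at 0.0503 after that correction and at 0.0270 with the block added, and at -0.40 to 0.12 with a library left out. PCDH9 stood at -4.6e-05 and -0.0034 in the FPKM tests and at -0.11 to 0.39 with a library left out. The ranges with a library left out were -0.51 to 0.0946 for PCDHGA6, -0.0355 to 0.11 for PCDH11Y and -0.0736 to 0.40 for PCDHB1. The difference in share turned for CDH24 (1.43 percentage points) and CDH1 (0.0204) with CDH6 in the sum, an alternative added after seeing the data. With a library left out it ranged from -0.32 to 0.0273 for CDH3 and from -0.10 to 0.0438 for CDH1. PCDHA1 passed the threshold without shCtrl library 2 (edgeR adjusted p = 0.0371) and in the likelihood-ratio test (0.0321). Counts of 0 to 19 per library limit the untested genes.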
